A study of Bos taurus with 56 samples.

Results

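Genes of the endoplasmic reticulum (ER) and early secretory pathway were followed across epithelial cells of the bovine oviduct. Members were taken by symbol: the SEC11, SEC13, SEC22, SEC23, SEC24, SEC31, SEC61, SEC62 and SEC63 genes, the PDIA genes, the COPA, COPB, COPE, COPG and COPZ genes, the TMED genes, SSR1 to SSR4, and a named set of ER chaperones and regulators of the unfolded protein response. A mean CPM (a gene's reads scaled to a common library size, corrected for composition) of at least 1 over the libraries was required. The rule found 58 of the 31903 genes in the count tables, and every gene with a matching symbol reached the minimum. CANX, ERN1 and CRELD2, also part of the named set, were not analysed here. By role, the 58 genes comprised 12 of translocation into the ER, 6 luminal chaperones, 5 protein disulfide isomerases, 4 regulators of the unfolded protein response, 13 of the COPII coat and the SEC22 proteins, 8 of the COPI coat and 10 p24 cargo receptors.

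Secreted and membrane proteins enter the ER through the Sec61 channel, lose their signal peptide, and are folded by chaperones and disulfide isomerases in the lumen. COPII-coated vesicles then carry cargo towards the Golgi, and COPI-coated vesicles return escaped ER proteins and receptors. When folding demand exceeds capacity the unfolded protein response raises chaperone genes, and in the oviduct the secretory cells between the ciliated cells release glycoproteins into the fluid that surrounds gametes and the early embryo.

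RNA-seq was carried out on 56 libraries from 14 Holstein animals, on day 3 after an induced oestrus. Oestrus was synchronised with a progesterone device, prostaglandin and GnRH in every group. The 3 metabolic groups were nulliparous heifers (n = 5), cows that were never milked after calving (non-lactating, n = 5) and milked cows (lactating, n = 4), both groups of cows at 60 days post-partum. Each animal gave isthmus, the segment next to the uterus, and ampulla, the segment next to the ovary, from the oviduct on the side of the corpus luteum (CL, ipsilateral) and from the other oviduct (contralateral), which made 12 conditions. Animals came from a larger cohort, cells were obtained by gentle scraping, and bulk RNA was sequenced, so fewer cells of a type and less RNA per cell cannot be told apart.

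Counts on genes ranged from 1901454 to 6836850 per library. In isthmus the ipsilateral libraries were deeper (median 5260092, lowest 3714419) than the contralateral ones (median 4382812, lowest 1901454). The markers of ciliated and secretory cells were present in all tissues, and the haemoglobin genes HBA and HBB were at 0 in all 56 libraries. In 4 of the 56 libraries, all from ipsilateral ampulla, the animal number or the expression profile went against the label. Of these, 2 carried the number of an animal of another group. Over 200 genes, they correlated best with an animal of the group their column names (0.73 and 0.83), above the animal of their number (0.10 and 0.14). Those labelled heifer B and non-lactating B each correlated better with the other animal than with their own (0.85 against 0.29 and 0.34). These 4 libraries were kept in the groups their columns name. For the 58 genes, the main edgeR counts that rest on them are given with and without them. Counts for other pathway genes, cell type markers and DESeq2 are given only with them. The contralateral ampulla library of heifer E also stood apart. It held the highest value of the 14 contralateral ampulla libraries for 34 of the 58 genes and of all 56 libraries for 13, and its summed CPM of 9 secretory cell markers was 49923, against a median of 16197 in that tissue.

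The 58 genes together took more of the counts in ipsilateral isthmus than in the other tissues. Their share of the counts on genes was 0.835 to 1.21% in ipsilateral isthmus (median 1.005%), 0.764 to 1.04% in contralateral isthmus (median 0.834%), 0.726 to 0.954% in ipsilateral ampulla (median 0.803%) and 0.709 to 1.08% in contralateral ampulla (median 0.763%). The 1.08% was that of heifer E, and the ranges of the 4 tissues overlapped. Of the 12 conditions, ipsilateral isthmus of heifers held the highest mean CPM for 38 of the 58 genes, and contralateral ampulla of heifers, which includes the library of heifer E, for 7.

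The first comparison asked whether the oviduct on the side of ovulation differs from the other side. In isthmus it did so for most of the secretory pathway genes. Over the 3 metabolic groups, with group as a term and 14 libraries on each side, 31 of the 58 genes were higher and 1 was lower ipsilateral to the CL by the quasi-likelihood test of edgeR, with p-values adjusted over 15031 genes by Benjamini-Hochberg (adjusted p under 0.05), where 28.4% of all genes tested were called (14.9% higher and 13.5% lower). The median log2 fold change, ipsilateral over contralateral, was 0.27 over the 58 genes and -0.015 over all genes tested, and 50 of the 58 were above 0. Of the roles, the luminal chaperones had the highest median (0.51), followed by the COPI coat (0.35), the p24 receptors (0.29), the disulfide isomerases (0.27), the COPII group (0.18), translocation (0.16) and the unfolded protein response regulators (0.11).

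**Figure D1:**
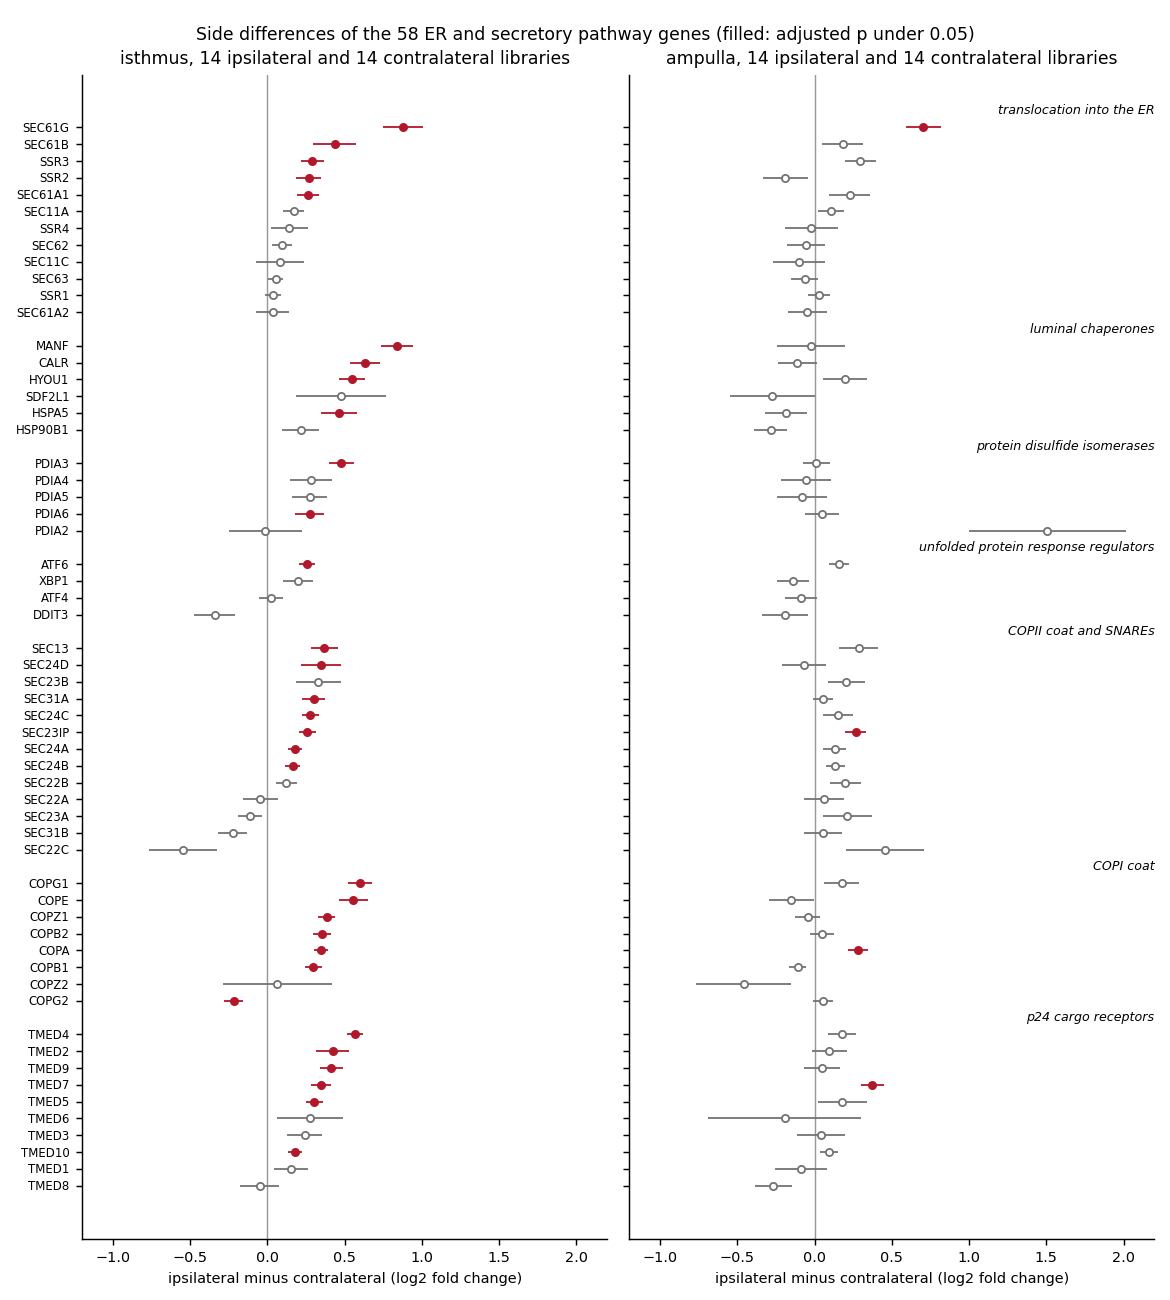
Points give the log2 fold change, ipsilateral over contralateral, of each of the 58 genes over the 3 metabolic groups, in isthmus and in ampulla, with lines of 1 SE and filled points for an adjusted p under 0.05. In isthmus 32 points are filled, with SEC61G (0.88) and MANF (0.84) farthest to the right and COPG2 (-0.22) the filled point below 0, while 4 are filled in ampulla.

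Of the 12 translocation genes, 5 were higher ipsilateral to the CL and none lower. SEC61G, the gamma subunit of the Sec61 channel, ran from 57.4 to 145 CPM in ipsilateral isthmus (median 96.0) and from 33.1 to 74.9 in contralateral isthmus (median 50.4). The sides overlapped only between 57.4 and 74.9 CPM, and the log2 fold change was 0.88 ± 0.13 (SE, n = 14 against 14, adjusted p = 1.3e-05). The beta subunit SEC61B (0.43 ± 0.14, adjusted p = 0.0216) and the pore-forming subunit SEC61A1 (0.26 ± 0.07, adjusted p = 0.00716) were higher by less. Among the translocon-associated proteins SSR2 and SSR3 were called at 0.27 and 0.29, whereas SSR1 differed by 0.03 ± 0.05 (adjusted p = 0.67). The signal peptidase subunit SEC11A was at 0.17 (adjusted p = 0.065).

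Of the 6 luminal chaperones, 4 were higher on the ipsilateral side. MANF, a small ER protein that binds the chaperone HSPA5, ran from 15.6 to 39.2 CPM ipsilaterally (median 22.5) and from 10.2 to 16.9 contralaterally (median 12.1), a log2 fold change of 0.84 ± 0.11 (adjusted p = 1.51e-06). CALR, the lectin chaperone calreticulin, ran from 601 to 1419 CPM (median 883) and from 481 to 755 (median 607), a log2 fold change of 0.63 ± 0.10 (adjusted p = 2.64e-05). HYOU1, an exchange factor for HSPA5, changed by 0.55 ± 0.08 (adjusted p = 2.02e-05). For HSPA5 (BiP), the main Hsp70 of the ER lumen, the ranges were 133 to 347 CPM (median 203) and 110.4 to 238 CPM (median 144), with more overlap than for MANF and a log2 fold change of 0.46 ± 0.12 (adjusted p = 0.00314). HSP90B1, the Hsp90 of the lumen, did not pass at 0.22 ± 0.12 (adjusted p = 0.19), and SDF2L1, at 0.889 to 13.2 CPM in isthmus, did not pass at 0.48 ± 0.29 (adjusted p = 0.23).

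Among the disulfide isomerases PDIA3, the partner of calreticulin, ran from 587 to 1099 CPM ipsilaterally (median 765) and from 466 to 679.9 contralaterally (median 549), a log2 fold change of 0.48 ± 0.08 (adjusted p = 6.19e-05). PDIA6 was higher by 0.27 ± 0.09 (adjusted p = 0.0302), a call lost in 5 of the 14 fits without 1 animal. PDIA4 had a value of 0.28 ± 0.14 without passing (adjusted p = 0.12), with 185.5 to 409 CPM on the ipsilateral and 135.7 to 444 CPM on the contralateral side, so that the single highest library was contralateral. With the animal as a block, a fit that called 32.6% of all genes, PDIA4 was called too (0.33, adjusted p = 0.00539).

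The regulators of the unfolded protein response moved less than the chaperones. ATF6, the membrane-bound transcription factor released by ER stress, ran from 202 to 273 CPM ipsilaterally (median 246) and from 169 to 256 contralaterally (median 202) and was higher by 0.26 ± 0.05 (adjusted p = 0.000344). XBP1, a transcription factor that drives chaperone and ER-expansion genes, did not pass at 0.20 ± 0.10 (adjusted p = 0.14), and was called with the animal as a block (0.20, adjusted p = 0.045). The values of ATF4, the translation-controlled factor of the PERK arm, lay almost level, with medians of 177 and 183 CPM and a log2 fold change of 0.02 ± 0.08 (adjusted p = 0.86). DDIT3 (CHOP), a target of ATF4, ran from 4.92 to 11.7 CPM (median 8.17) and from 6.57 to 16.0 (median 10.3), a value of -0.34 ± 0.13 that did not pass (adjusted p = 0.053). DESeq2, which called 26% of all genes, gave DDIT3 an adjusted p of 0.0425.

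In the COPII group 7 of 13 genes were higher. The outer coat genes SEC13 (0.37 ± 0.09, adjusted p = 0.0016) and SEC31A (0.30 ± 0.08, adjusted p = 0.00349) were both among them. All 4 genes of the cargo-binding SEC24 family passed, from 0.16 for SEC24B to 0.34 ± 0.13 for SEC24D (adjusted p = 0.0464), although the SEC24D call was lost in 8 of the 14 fits without 1 animal. SEC23IP, which binds SEC23, was higher by 0.26, while the inner coat genes SEC23A (-0.11 ± 0.08, adjusted p = 0.28) and SEC23B (0.33 ± 0.15, adjusted p = 0.095) did not pass. SEC23B was higher ipsilaterally in 14 of 14 animals and was called with the animal as a block (0.35, adjusted p = 0.000706).

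The COPI coat was the role with the highest share of calls, 6 higher and 1 lower of 8. COPG1, the gamma-1 subunit, ran from 113 to 222 CPM ipsilaterally (median 157) and from 75.4 to 117 contralaterally (median 103), and only the 1 lowest ipsilateral library lay within the contralateral range (0.60 ± 0.08, adjusted p = 2.04e-06). COPG2, the paralogous gamma-2 subunit, went the other way, with 73.5 to 100.3 CPM (median 87.5) against 79.1 to 119.6 CPM (median 101), a log2 fold change of -0.22 ± 0.06 (adjusted p = 0.00759). COPG2 was the only one of the 58 genes called lower in this fit, and the animal block added SEC22C (-0.51, adjusted p = 0.041). COPE was higher by 0.56, COPZ1 by 0.38, COPA and COPB2 by 0.35 and COPB1 by 0.30, so that all COPI members apart from COPG2 and COPZ2 were higher.

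Of the 10 p24 genes, whose products collect cargo at both coats, 6 were higher. TMED4 separated the sides completely, with 168 to 223 CPM in ipsilateral isthmus (median 195) and 107 to 149 CPM in contralateral isthmus (median 129). Its log2 fold change was 0.57 ± 0.05 with the smallest adjusted p of the 58 genes (1.34e-08). TMED2 was higher by 0.42 ± 0.11 (adjusted p = 0.00407), TMED9 by 0.41, TMED7 by 0.35, TMED5 by 0.30 and TMED10 by 0.18.

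Within single animals the same direction held. The median ipsilateral minus contralateral difference of the 58 genes was above 0 in 14 of 14 animals, from 0.06 in non-lactating A to 0.43 in lactating C, while the median over all genes at 1 CPM or more lay between -0.02 and 0.04. In each animal 32 to 52 of the 58 genes were higher on the ipsilateral side. The genes that did so in 14 of 14 animals were COPA, COPB1, COPB2, COPG1, COPZ1, HYOU1, MANF, SEC23B, SEC23IP, SEC24C, SSR3 and TMED4. The MANF difference in single animals ran from 0.34 to 1.82 and that of TMED4 from 0.34 to 0.92, and COPG2 was higher ipsilaterally in 1 of 14 animals.

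**Figure D2:**
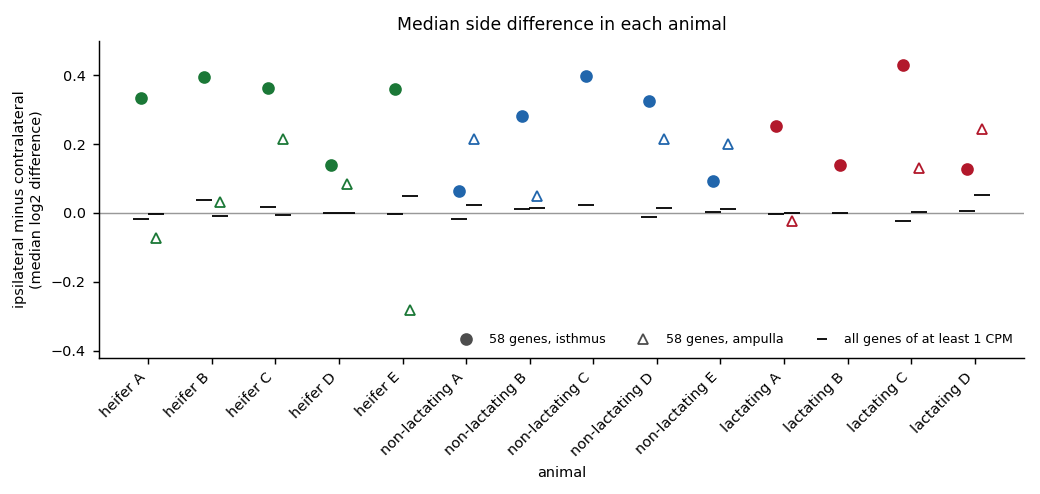
Each symbol is the median over the 58 genes of the ipsilateral minus contralateral difference in log2 CPM in 1 animal (circles isthmus, triangles ampulla), with dashes for the median over all genes at 1 CPM or more. All 14 isthmus medians lie above 0, from 0.06 to 0.43, whereas the 12 ampulla medians run from -0.28 in heifer E to 0.24 in lactating D, with heifer B and non-lactating B (0.03 and 0.05) resting on libraries that went against their labels.

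Within heifers, 16 of 57 genes tested were higher ipsilateral to the CL in isthmus and 0 lower, against 10% of all genes tested (5.71% higher and 4.34% lower). The largest 6 were MANF, SEC61G, CALR, COPE, COPG1 and TMED2. MANF was at 25.9, 28.3, 29.6, 37.1 and 39.2 CPM ipsilaterally and at 10.2, 16.0, 16.1, 16.6 and 16.7 CPM contralaterally, with no overlap (log2 fold change 1.04 ± 0.16, n = 5 against 5, edgeR adjusted p = 0.00574). CALR was at 824, 1129.8, 1195, 1285 and 1419 CPM ipsilaterally and at 486, 611, 614, 687 and 693 CPM contralaterally, again with no overlap (0.90 ± 0.15, adjusted p = 0.00598).

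The heifer values of SEC61G were 59.5, 95.1, 112, 116 and 145 CPM ipsilaterally and 43.9, 47.1, 47.5, 53.3 and 60.9 CPM contralaterally. One ipsilateral library lay within the contralateral range, and the log2 fold change was 1.04 ± 0.20 (adjusted p = 0.00928). COPE, the epsilon subunit of COPI, was at 49.8, 71.6, 72.8, 76.8 and 79.3 CPM against 35.6, 35.7, 38.7, 45.6 and 46.1 CPM (0.77 ± 0.14, adjusted p = 0.00774). COPG1 was at 128, 172, 181, 187 and 222 CPM against 94.3, 95.1, 105, 106 and 112 CPM (0.77 ± 0.13, adjusted p = 0.00666). TMED2 was at 69.5, 97.5, 98.6, 113 and 126 CPM against 57.3, 58.3, 60.4, 61.2 and 63.6 CPM (0.72 ± 0.14, adjusted p = 0.00995). In COPE, COPG1 and TMED2 the sides did not overlap, and the lowest ipsilateral library stood well below the other four.

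HSPA5 in heifers was at 213, 243, 253, 328 and 347 CPM ipsilaterally and 135, 144, 149, 171 and 238 CPM contralaterally, with 1 contralateral library inside the ipsilateral range (0.70 ± 0.18, adjusted p = 0.027). The other heifer calls were PDIA3 (0.70), TMED4 (0.61), TMED9, HYOU1, COPZ1, COPB2, COPB1, TMED7 and COPA (0.36 to 0.55). None of the 13 COPII genes was called in heifers. Leaving out an animal left 7 calls without heifer E and 10 without heifer B, with the shares of all genes in those fits not given here. SEC61G and TMED2 were among those lost without heifer E, and SEC61G was also lost without heifer A.

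In non-lactating cows 4 of 57 genes were higher and 0 lower in ipsilateral isthmus, against 5.11% of all genes tested (2.94% higher and 2.17% lower). HYOU1 was at 104, 113, 113, 126 and 149 CPM ipsilaterally and 66.7, 72.5, 80.8, 82.0 and 91.9 CPM contralaterally (0.61 ± 0.12, n = 5 against 5, adjusted p = 0.0159). TMED4 was at 168, 173, 174, 203 and 209 CPM against 107, 122, 123, 125 and 133 CPM (0.60 ± 0.10, adjusted p = 0.00734). Neither gene overlapped between sides. COPG1 (0.53 ± 0.12, adjusted p = 0.0251) and SEC24C, a cargo-binding subunit of COPII (0.41 ± 0.10, adjusted p = 0.0392), were the other two. The SEC24C call was lost whichever of the 5 animals was left out. The median over the 57 genes was 0.26 and 46 were above 0. The count was 1 without non-lactating B, C or D, and the shares of all genes in those fits are not given here.

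In lactating cows 0 of 57 genes were called in isthmus by edgeR, where 0.187% of all genes were (0.144% higher and 0.0432% lower). At an unadjusted p under 0.05 there were 19 (18 higher), against 12.2% of all genes, the median was 0.25 and 49 of the 57 were above 0. The smallest p belonged to TMED4, with 169, 173, 194 and 196 CPM ipsilaterally and 122, 129.9, 137 and 137 CPM contralaterally, which did not overlap (0.48 ± 0.10, n = 4 against 4, adjusted p = 0.101). MANF came next, with 17.1, 19.2, 20.5 and 21.3 CPM against 10.2, 10.7, 12.4 and 14.9 CPM, also without overlap (0.69 ± 0.18, adjusted p = 0.155). DESeq2 called TMED4 and SEC61G (2.62% of all genes), and edgeR with the animal as a block called TMED4 (adjusted p = 0.0445, 2.32% of all genes).

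**Figure D3:**
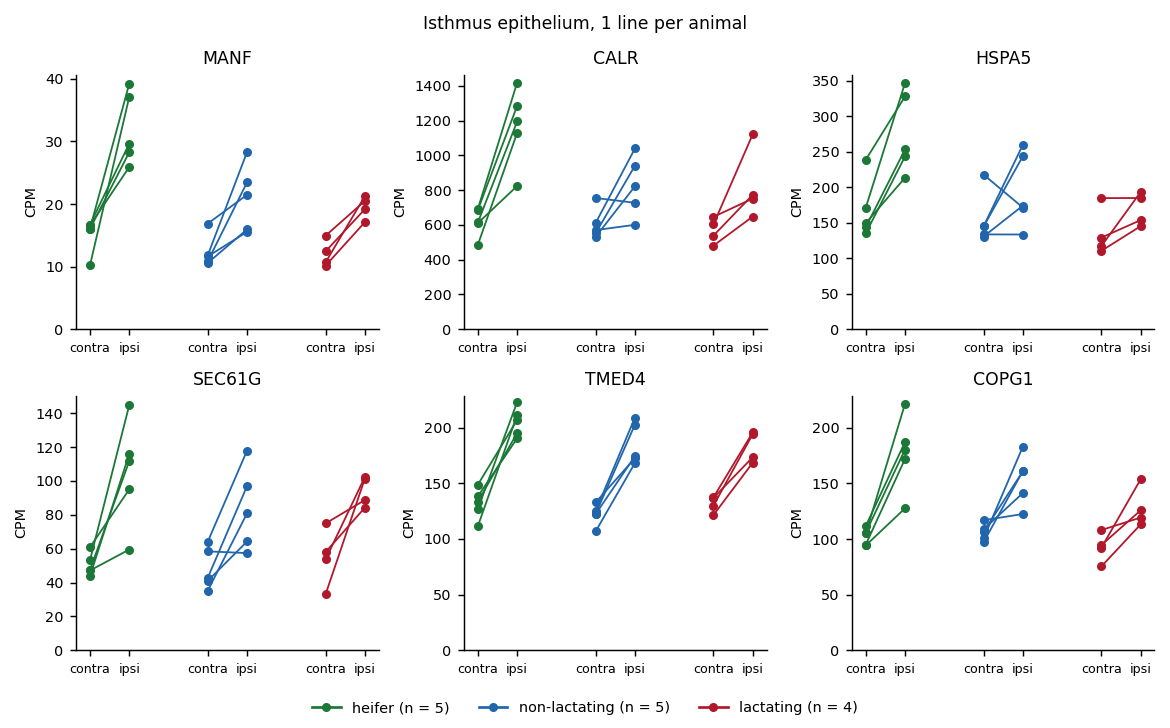
Lines join the contralateral and ipsilateral isthmus CPM of each of the 14 animals for MANF, CALR, HSPA5, SEC61G, TMED4 and COPG1, coloured by metabolic group. Every line rises for MANF, TMED4 and COPG1, 13 of 14 rise for CALR and SEC61G and 12 of 14 for HSPA5, and the ipsilateral heifer values of MANF (25.9 to 39.2 CPM) lie above those of lactating cows (17.1 to 21.3 CPM).

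The side difference in isthmus was then compared among the 3 metabolic groups directly. None of the 58 genes, and 0% of the 15031 genes tested, had a side difference that varied with metabolic group by the edgeR interaction test. None of the 58 had an unadjusted p under 0.05 (308 of all genes did), and DESeq2 also called 0. These tests did not pair the sides by animal. With the animal as a block, edgeR called 1 of all genes (0.00665%) and none of the 58. The 16, 4 and 0 calls in the separate groups are therefore not shown to differ.

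Cell type markers were read in the fit of isthmus sides over the 3 metabolic groups. That fit called 28.4% of all genes tested (14.9% higher and 13.5% lower). The summed CPM of 14 ciliated cell markers was 4852 to 7461 ipsilaterally (median 6433) and 5932 to 8195 contralaterally (median 7299), with 1 of 14 higher and 2 lower. The sum of 9 secretory cell markers was 2241 to 24746 (median 16500) and 2074 to 26776 (median 16702). WFDC2 (0.90) and the keratins KRT7, KRT8 and KRT18 (0.44 to 0.61) were higher, and the other markers of this list are not given here. The sum was mostly OVGP1 and MUC16, with means of 9735 and 6298 CPM over all libraries, whereas KRT7 and WFDC2 averaged 65.3 and 320 CPM. The smooth muscle sum was 39.3 to 133 CPM (median 88.6) and 16.3 to 85.2 CPM (median 50.8), with MYLK (1.35) the 1 of 5 called. Of its markers, TAGLN and CNN1 were at 0 in 45 and 44 of the 56 libraries and MYH11 (mean 20.5 CPM) in 5. ACTA2 (mean 10.3 CPM), DES, MYLK and SMTN were at 0 in none. The sum of B and plasma cell markers was 7.22 to 184 CPM (median 11.5) and 4.49 to 133 CPM (median 9.84), with MZB1, an ER protein of plasma cells, higher by 1.32 ± 0.40 (adjusted p = 0.0127). Endothelial sums had medians of 30.9 and 45.5 CPM with 1 of 5 markers higher and 1 lower (EMCN 1.60, KDR -1.29), fibroblast sums had medians of 41.2 and 37.7 CPM with THY1 (3.15) the 1 of 7 called, and no lymphocyte or macrophage marker was called. The part of these cells in the side differences was not tested.

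Other genes of the same pathway, 162 in 10 lists chosen by role, were read in the same fit. In isthmus 74 of the 157 tested were higher and 3 lower ipsilateral to the CL, with a median of 0.20, against the 28.4% of all genes called in this fit (14.9% higher and 13.5% lower). The ER co-chaperones had 6 of 7 higher, led by DNAJC10 (0.66) and DNAJB11 (0.62), both J-domain partners of HSPA5. Signal recognition particle and signal peptidase genes had 8 of 13 higher (SRP14 0.80, SPCS1 0.48). Oligosaccharyltransferase genes had 6 of 10 higher (OST4 0.65, RPN2 0.56) and TUSC3 lower (-0.52), and glycoprotein quality control had 3 of 5 higher (MOGS 0.59, UGGT1 0.33).

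Oxidative folding genes had 8 of 21 higher (FKBP9 0.75, TMX2 0.51) and TMX1 lower (-0.18). ER-associated degradation had 7 of 21 higher, among them SYVN1 (0.65), the ubiquitin ligase of the retrotranslocation complex, and VIMP (0.55). Unfolded protein response signalling had 7 of 19 higher and 1 lower, with BHLHA15 (1.26), a transcription factor of professional secretory cells, and CREB3L4 (0.76) at the top and MBTPS2 (-0.45), a protease that releases ATF6, at the bottom. COPII assembly had 11 of 24 higher (ERGIC1 0.66, PREB 0.45), COPI regulation and retrieval 9 of 20 (GBF1 0.62, ARF1 0.53) and Golgi structure and tethering 9 of 17 (COG7 0.36, GOLM1 0.32), with none lower in these 3 lists.

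In ampulla few of the 58 genes differed between sides. Over the 3 metabolic groups 4 of 58 were higher ipsilateral to the CL and 0 lower, against 4.99% of all genes tested (2.57% higher), and the median was 0.05. SEC61G was at 59.2 to 116 CPM ipsilaterally (median 74.3) and 29.0 to 80.6 CPM contralaterally (median 49.5), a log2 fold change of 0.70 ± 0.11 (n = 14 against 14, adjusted p = 0.000599), and was higher in 12 of the 12 animals that could be paired by number, which include heifer B and non-lactating B, whose ipsilateral libraries went against their labels. TMED7, a p24 receptor, was at 86.6 to 142 CPM (median 106) and 66.0 to 106 CPM (median 83.9), with 0.37 ± 0.08 (adjusted p = 0.00434). COPA was higher by 0.28 ± 0.06 (adjusted p = 0.00971) and SEC23IP by 0.27 ± 0.07 (adjusted p = 0.0226). PDIA2, at low levels (medians 2.28 and 0.475 CPM), was not called, though higher ipsilaterally in 11 of the 12 paired animals.

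Of the 4 chaperones called between isthmus sides, none was called in ampulla. HYOU1 had medians of 78.4 CPM ipsilaterally and 62.0 CPM contralaterally and was higher in 9 of 12 animals (0.20 ± 0.14, adjusted p = 0.49). MANF had medians of 11.7 and 11.5 CPM, CALR of 512 and 515 CPM and HSPA5 of 132 and 135 CPM, with log2 values of -0.02, -0.11 and -0.18. HSP90B1 was at -0.28 ± 0.11 (adjusted p = 0.12). The highest contralateral value was that of heifer E for MANF (23.0 CPM, next 17.2), CALR (1334, next 688) and HSPA5 (368, next 228). Without that library 8 genes were called in ampulla, with COPG1 (0.29), SEC61A1 (0.36), SSR3 (0.36) and TMED4 (0.26) added, and the same 8 without the 4 libraries that went against their labels as well. Without those 4 alone, 3 were called and SEC23IP was lost (adjusted p = 0.058). Shares of all genes called in these fits are not given here.

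Within metabolic groups edgeR called 0 of 57 genes in the ampulla of heifers (0% of all genes), 0 of 57 in non-lactating cows (0.0947%) and 0 of 56 in lactating cows (0%). Unadjusted p-values under 0.05 belonged to 5, 11 and 2 genes (9.20, 11.1 and 4.26% of all genes), and DESeq2 called 0, 1 and 0 (0.399, 0.990 and 0.0636% of all genes). Without the 4 libraries that went against their labels edgeR also called 0 in each group, and unadjusted p-values under 0.05 numbered 4, 10 and 2. Shares of all genes in those fits are not given here. The smallest p values were those of PDIA2 (1.51 ± 0.54, adjusted p = 0.432) and SEC24C (0.33 ± 0.13, adjusted p = 0.454) in heifers, and of SEC61G (0.77 ± 0.17, adjusted p = 0.110) and HYOU1 (0.57 ± 0.15, adjusted p = 0.169) in non-lactating cows. In lactating cows they were those of SEC61G (0.88 ± 0.19, adjusted p = 0.999) and TMED7 (0.36 ± 0.14, adjusted p = 0.999). With the animal as a block SEC61G was called in non-lactating (adjusted p = 0.0491, 1.08% of all genes) and in lactating cows (adjusted p = 0.0301, 0.187% of all genes). The call in non-lactating cows was lost in the block without the 4 libraries that went against their labels.

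The side difference itself was tested between the regions. For 9 of the 58 genes it was larger in isthmus than in ampulla and for 0 smaller, against 5.97% of all genes tested (3.87% larger). The difference of the 2 log2 fold changes was 0.87 ± 0.25 for MANF (adjusted p = 0.0253), 0.74 ± 0.17 for CALR (adjusted p = 0.00354), 0.71 ± 0.18 for COPE (adjusted p = 0.0105) and 0.65 ± 0.18 for HSPA5 (adjusted p = 0.0233). PDIA3 (0.47), COPZ1 (0.43), COPB1 (0.40), TMED4 (0.39) and COPB2 (0.31) were the others. Without the 4 libraries that went against their labels 6 genes were called, among them CALR, COPB1, COPE, COPZ1 and PDIA3. MANF (adjusted p = 0.0622) and HSPA5 (0.0563) were among those lost. Without the heifer E contralateral ampulla library 8 were called, with MANF at 0.78 (adjusted p = 0.0422). Without any of these 5 libraries CALR (0.60), COPE (0.51), COPB1 (0.40), COPZ1 (0.37), PDIA3 (0.36) and TMED4 (0.28) were called. Shares of all genes called in the fits without libraries are not given here, so these counts are not set against all genes.

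The study also asked whether lactation alters the oviduct. EdgeR called none of the 58 genes between metabolic groups in any of the 4 tissues, where it called 0.00730% of all genes between non-lactating cows and heifers in ipsilateral isthmus and 0% in the other 11 comparisons. In ipsilateral isthmus 12 genes between lactating cows and heifers and 14 between non-lactating cows and heifers had an unadjusted p under 0.05, all lower in cows, against 10.4% and 11.8% of all genes. The medians were -0.15 and -0.18 and 12 of 57 genes were above 0 in the first of these. MANF, with the heifer and lactating values given above, did not overlap between the groups (-0.69 ± 0.16, adjusted p = 0.253). Neither did HSPA5, with 145, 154, 185 and 193 CPM in lactating cows (-0.69 ± 0.16, adjusted p = 0.254).

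DESeq2 called 3 genes between lactating cows and heifers in ipsilateral isthmus, HSPA5 (adjusted p = 0.0162), SEC23B (-0.80, adjusted p = 0.0202) and MANF (adjusted p = 0.0239), where it called 1.08% of all genes. For non-lactating cows against heifers the smallest p values were those of PDIA3 (-0.45 ± 0.14) and MANF (-0.59 ± 0.19), both with an adjusted p of 0.242, and DESeq2 called 0. Between lactating and non-lactating cows no gene had an unadjusted p under 0.05. SDF2L1 (-0.61 ± 0.33, adjusted p = 0.833) and COPG1 (-0.25 ± 0.14, adjusted p = 0.842) had the smallest p values, and DESeq2 called 0 (0.111% of all genes).

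In contralateral isthmus 6, 7 and 2 genes had an unadjusted p under 0.05 for lactating against heifer, non-lactating against heifer and lactating against non-lactating, against 10.7, 9.18 and 3.94% of all genes. SEC23B, an inner COPII coat subunit, was at 89.0, 92.4, 185, 189 and 195 CPM in heifers, 75.1, 76.7, 88.2, 92.9 and 182 CPM in non-lactating cows and 68.1, 74.0, 74.6 and 78.5 CPM in lactating cows. Its values fell into a low and a high set, with 3 heifers and 1 non-lactating cow in the high one. The lactating and heifer values did not overlap, with a log2 value of -1.02 ± 0.24 (adjusted p = 0.372) that DESeq2 called (adjusted p = 0.0206), as it did 0.531% of all genes. PDIA2 had -1.12 ± 0.36 (adjusted p = 0.372) in the same comparison and -0.99 between lactating and non-lactating cows, next to DDIT3 with 0.53. HYOU1 (-0.39) and SEC23A (-0.30) had the smallest p values between non-lactating cows and heifers. DESeq2 called 0 in these last 2 comparisons, against 0.00860% of all genes for lactating against non-lactating and 0.230% for non-lactating against heifer.

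In ampulla the counts at an unadjusted p under 0.05 were 4, 0 and 2 ipsilaterally (7.15, 3.63 and 3.57% of all genes) and 5, 5 and 2 contralaterally (4.73, 4.35 and 5.06% of all genes), in the same order of comparisons. DESeq2 called 0 in all 6, against 0.121, 0 and 0% of all genes ipsilaterally and 0.00453, 0.0182 and 0.00924% contralaterally. Without the 4 libraries that went against their labels the ipsilateral counts were 5, 0 and 2, and edgeR called 0. Shares of all genes in those fits are not given here. SEC23B (-0.63) and SEC22A (-0.56) had the smallest p values between lactating cows and heifers ipsilaterally, and SEC23B (-0.61) and SEC61A1 (-0.69) contralaterally. Against heifers, non-lactating cows had the smallest p values for SEC22A (-0.34) and SEC23B (-0.34) ipsilaterally and for SEC22A (-0.74) and HYOU1 (-0.72) contralaterally. Between lactating and non-lactating cows these were SEC61B (-0.49) and TMED3 (-0.55) ipsilaterally and SEC23A (0.72) and SEC61B (-0.62) contralaterally.

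Isthmus and ampulla were then compared on each side. On the ipsilateral side 31 of the 58 genes were higher and 5 lower in isthmus than in ampulla, against 50.3% of all genes tested (24.5% higher and 25.8% lower), with a median of 0.24 over the 58 and -0.02 over all genes. Without the 4 libraries that went against their labels 30 were higher and 4 lower, with the share of all genes not given here. On the contralateral side 12 were higher and 1 lower, against 43.5% of all genes (21.5% higher and 22% lower), with a median of 0.07. All 6 luminal chaperones were among the ipsilateral calls, with MANF at 1.09 ± 0.14 (adjusted p = 7.95e-08) and CALR at 0.79 ± 0.10 (adjusted p = 1.81e-07), and XBP1 was higher by 0.58 ± 0.09 (adjusted p = 2.73e-06). MANF ran from 15.6 to 39.2 CPM in ipsilateral isthmus and from 5.92 to 15.9 CPM in ipsilateral ampulla, so that the regions overlapped only at 15.6 to 15.9 CPM.

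TMED6, a p24 family member, was near 0 in ampulla. It was at 6.52 to 22 CPM in ipsilateral isthmus (median 9.43) and at 0 to 2.495 CPM in ipsilateral ampulla (median 0.775), with no overlap (log2 fold change 3.59 ± 0.31, n = 14 against 14, adjusted p = 1.2e-10). Contralaterally it was at 2.78 to 19.1 CPM (median 8.45) and 0 to 2.97 CPM (median 0.847), a log2 fold change of 3.14 ± 0.34 (adjusted p = 7.54e-09). PDIA2, a disulfide isomerase first known from pancreas, was at 3.00 to 13.5 CPM in contralateral isthmus (median 4.77) and 0 to 2.53 CPM in contralateral ampulla (median 0.475), with no overlap (3.09 ± 0.40, adjusted p = 1.91e-07). On the ipsilateral side the ampulla held more, 0.187 to 5.17 CPM (median 2.28), against 2.16 to 13.7 CPM in isthmus (median 5.85), and the log2 fold change was 1.57 ± 0.30 (adjusted p = 6.96e-05). Some ampulla libraries held no read of TMED6 or none of PDIA2, so these fold changes depend on the prior count.

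SEC11C, a catalytic subunit of signal peptidase, was at 48.6 to 132 CPM in ipsilateral isthmus (median 85.0) and 24.9 to 63.0 CPM in ipsilateral ampulla (median 39.8), higher by 1.13 ± 0.15 (adjusted p = 1.92e-07) there and by 0.96 ± 0.18 contralaterally (adjusted p = 5.35e-05). Its paralogue SEC11A was at 73.9 to 129 CPM and 46.8 to 68.8 CPM ipsilaterally, with no overlap, and was higher by 0.70 on that side and 0.65 on the other. TMED8 (0.84 and 0.64) and the outer COPII coat gene SEC31A (0.77 and 0.54) were also higher in isthmus on both sides. SEC31A ran from 367 to 613 CPM in ipsilateral isthmus and from 222 to 322 CPM in ipsilateral ampulla, with no overlap.

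**Figure D4:**
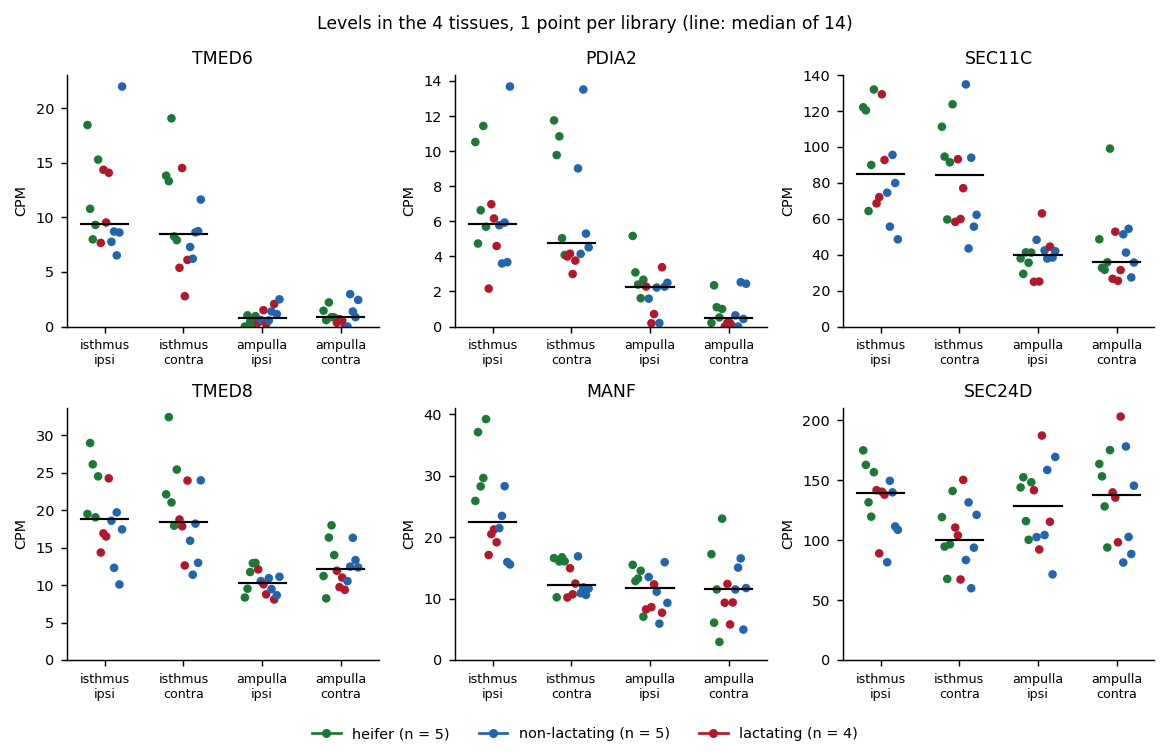
Points give CPM in each of the 14 libraries of ipsilateral and contralateral isthmus and ampulla for TMED6, PDIA2, SEC11C, TMED8, MANF and SEC24D, with a line at the median. TMED6 has medians of 9.43 and 8.45 CPM in isthmus and 0.775 and 0.847 CPM in ampulla, while MANF stands higher in ipsilateral isthmus (22.5 CPM) than in the other 3 tissues (11.5 to 12.1 CPM).

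The genes lower in ipsilateral isthmus than in ampulla were the vesicle transport genes SEC22C (-0.62 ± 0.20, adjusted p = 0.0109) and SEC22A (-0.40 ± 0.09, adjusted p = 0.000562), SEC23A (-0.31 ± 0.08, adjusted p = 0.00236), the translocon-associated SSR4 (-0.28 ± 0.10, adjusted p = 0.0245) and COPG2 (-0.25 ± 0.06, adjusted p = 0.00104). SSR4 was lost without the 4 libraries that went against their labels (adjusted p = 0.0714). Contralaterally SEC24D was lower (-0.39 ± 0.15, adjusted p = 0.0297), at 59.9 to 150 CPM in isthmus (median 100.3) and 81.3 to 203 CPM in ampulla (median 138), and was lost without the heifer E library (adjusted p = 0.0503). Without that library 20 genes were called on the contralateral side in place of 13, and the share of all genes called in that fit is not given here. Ciliated cell markers were lower in isthmus for 13 of 14 genes ipsilaterally and 14 of 14 contralaterally, with summed medians of 6433 and 7299 CPM in isthmus and 8854 and 9641 CPM in ampulla. Endothelial markers were lower in isthmus for 4 of 5 genes on each side, with summed medians of 30.9 CPM ipsilaterally and 45.5 CPM contralaterally in isthmus and 159 and 229 CPM in ampulla. Fibroblast sums had medians of 41.2 and 37.7 CPM in isthmus and 109 and 52.1 CPM in ampulla, with 2 markers higher and 2 lower on each side. The part of these cells in the regional differences was not tested.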

How the data were processed

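Libraries were made by the authors from total RNA with a stranded NuGEN kit and sequenced on an Illumina HiSeq. The authors trimmed adapters and poly-A, removed reads under 25 nt, aligned with TopHat2 (version 2.0.13) to the Btau_4.6.1 genome and counted with HTSeq (version 0.6.1) in stranded, intersection-strict mode; the deposited values are raw counts per gene. Of the counted alignments, 8.66 to 13.7% fell on genes, and the other rows were left out of library sizes.

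Counts were tested with edgeR 4.0.16 (quasi-likelihood, TMM, filterByExpr with a minimum count of 10) in R 4.3.3, over all genes passing the filter, with Benjamini-Hochberg adjustment. SEs were taken from the fitted fold change and its F statistic. The comparison of regions had metabolic group as a term, as did that of sides over groups, and the interaction of side with region used all 56 libraries. CPM values used the TMM-scaled counts on genes, and log2 CPM had a prior count of 2. Alternatives were DESeq2 1.42.0, no filter, RLE size factors, the animal as a block, and leaving out animals or libraries. Scripts were tested on simulated counts.

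Groups came from the labels and animals from the column names. Same-animal libraries of the 2 sides deviated together (median r 0.34 over 26 pairs, -0.043 to 0.66, above 0.1 in 20). Replicates differed beyond sampling noise (chi-square per degree of freedom at least 5.20).

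Members and lists were chosen with earlier results of these data known. Named are the 6 largest called increases and decreases of each comparison, the 2 smallest p values where nothing was called, a set of chaperone, translocon and coat genes between sides, and up to 4 called genes of each companion list. Genes named otherwise were chosen after their values were seen. The result of 1 companion gene is not reported here.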

Additional observations from a re-analysis of the deposited data

Results flagged for a closer look

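Only genes called between isthmus sides in heifers or in non-lactating cows were examined, each in the libraries of either side of that group. Of these 40 groups of 5 libraries, 2 held a library far from the others, where chance gives about 1 in 20. COPE in ipsilateral isthmus of heifers was at 49.8 CPM in animal D, with the nearest heifer at 71.6 CPM. MANF in contralateral isthmus of heifers was at 10.2 CPM in animal B, with the nearest at 16.0 CPM.

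The side difference was larger in isthmus than in ampulla for 9 genes by the edgeR interaction test. The differences of log2 fold changes were 0.74 for CALR (adjusted p = 0.00354), 0.40 for COPB1 (0.000295), 0.31 for COPB2 (0.0357), 0.71 for COPE (0.0105), 0.43 for COPZ1 (0.00595), 0.65 for HSPA5 (0.0233), 0.87 for MANF (0.0253), 0.47 for PDIA3 (0.0127) and 0.39 for TMED4 (0.0189). Of these, CALR, COPB1, COPE, COPZ1 and PDIA3 were also called without the 4 ipsilateral ampulla libraries that went against their labels.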

How the results depend on the processing

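Median log2 fold changes of the 58 genes moved by less than 1 SD between replicate libraries with RLE size factors, no filter or 1 animal left out, although medians close to 0 changed sign, as between ampulla sides in heifers (-0.022, and 0.064 without heifer E). DESeq2 moved the count of genes called between sides from 4 to 9 in the isthmus of non-lactating cows (5.11 to 8.02% of all genes), from 0 to 2 in that of lactating cows and from 0 to 1 in the ampulla of non-lactating cows. It moved lactating against heifer from 0 to 3 in ipsilateral and from 0 to 1 in contralateral isthmus, and side by region from 9 to 14 (5.97 to 8.33% of all genes). The animal as a replicate block gave 1 gene in place of 0 in the isthmus of lactating cows and in the ampulla of non-lactating and of lactating cows, and 15 in place of 9 for side by region (8.03% of all genes). With no filter 1 gene was called in the ampulla of non-lactating cows. The cause of these changes was not tested. The block could not be fitted between metabolic groups, which hold different animals.

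Alternatives chosen after seeing the data left out single libraries. The block without the 4 libraries that went against their labels gave 1 gene in the ampulla of lactating cows, none in that of non-lactating cows and 2 in place of 4 over the 3 groups. Without the contralateral ampulla library of heifer E, 8 genes were called between ampulla sides, 8 also without those 4 libraries, and 20 in place of 13 between regions contralaterally. Shares of all genes in the fits without libraries or animals are not given here, so these counts are not set against all genes. Leaving out 1 animal at a time gave 7 to 16 genes between isthmus sides in heifers (7 without E, 10 without B), 1 to 4 in non-lactating cows and 3 to 8 between ampulla sides over the groups (8 without heifer E). ATF4 in isthmus ran from -0.024 (without non-lactating D) to 0.066. A minimum of 0.5 CPM kept 58 members and 5 CPM kept 55, with 32 called in isthmus in both. Depth limits TMED6 and PDIA2 in ampulla, with 0 to 15 reads contralaterally.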

Other observations

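The other secretory pathway genes, outside the 58, were also read between the regions of the oviduct. In the ipsilateral oviduct 54 of 159 were higher and 20 lower in isthmus than in ampulla, and contralaterally 27 of 158 were higher and 30 lower (edgeR, adjusted p under 0.05), against 50.3% and 43.5% of all genes called (24.5% higher and 25.8% lower ipsilaterally, 21.5% and 22% contralaterally). The unfolded protein response list held the widest spread ipsilaterally, 5 higher and 6 lower of 19. ERN2, the epithelial relative of the ER stress sensor ERN1, was higher by 3.07 and BHLHA15, a transcription factor of secretory cells, by 2.90, while SESN2 (-1.19) and ATF3 (-0.84), both stress-induced, were lower. Contralaterally ERN2 was higher by 2.97 and CREB3L1 by 1.13, with ASNS (-1.0) and ATF3 (-0.73) lower.

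All 8 called Golgi genes were higher ipsilaterally, led by COG7 (0.56) and GOLGA2 (0.54). COPI regulation and retrieval had 7 higher and 1 lower, with ARFGAP3 (1.05) at the top and the retrieval receptor KDELR3 (-0.23) the 1 lower. COPII assembly had 10 higher and 4 lower, with the cargo receptor LMAN1 at 0.73 and CNIH1 at -0.41. In oxidative folding FKBP9 (0.93) and FKBP14 (0.79) were higher and ERO1L (-0.60), the oxidase of the disulfide isomerases, was lower. ER-associated degradation had 6 higher and 1 lower of 21 (SYVN1 0.94), the co-chaperones 3 higher (DNAJB9 0.97), and glycoprotein quality control 1 higher and 2 lower, CLGN (-1.15) and CALR3 (-0.82). Signal recognition and signal peptidase genes had 5 higher and 0 lower, and oligosaccharyltransferase genes 1 in each direction.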
